A study of Sus scrofa with 8 samples.

Results

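The aryl hydrocarbon receptor (AHR) and its best-known target enzymes were followed in the livers of young and old sows. Both CYP1A genes lay far lower in the old sows. The mean of CYP1A1 was 317 ± 139.5 CPM (SD, n = 2) in young and 30.3 ± 2.78 CPM (SD, n = 2) in old livers, and that of CYP1A2 was 446 ± 152 against 70.1 ± 59.9 CPM. NQO1 was lower as well, 6.10 ± 1.99 against 1.54 ± 0.987 CPM. The receptor itself did not share this pattern, with AHR at 3.41 ± 0.840 CPM in young and 4.19 ± 0.712 CPM in old livers. CPM gives the reads of a gene relative to the total of its library, with no correction for gene length, so levels are compared between livers and not between genes.

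The group was chosen by name, as the receptor, its partner, its repressor and its classical targets: CYP1A1, CYP1A2, CYP1B1, AHR, AHRR, ARNT, TIPARP and NQO1. Of these 8 names, 6 were paired with an identifier among the 21607 of the mRNA table, namely CYP1A1 (ENSSSCG00000001906), CYP1A2 (ENSSSCG00000001901), AHR (ENSSSCG00000030484), ARNT (ENSSSCG00000006646), TIPARP (ENSSSCG00000027646) and NQO1 (ENSSSCG00000002754). CYP1B1 and AHRR were not analysed here. All 6 passed the filter on low values, which kept mRNAs detected (above 0) in 2 or more libraries. The names were put together when the CPM values of these same libraries were known. The age differences of the 6 genes are therefore given as a description, with no p-value printed. Calls that the tests made for them stand beside the shares of all mRNAs, and nothing is read from these calls.

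The livers came from 4 female Yanan pigs, an indigenous breed of China, without any treatment or genetic change. The young group was 2 sows of 180 days and the old group 2 sows of 8 years, and each liver gave 1 rRNA-depleted RNA-seq library and 1 small RNA-seq library. According to the study, the young sows had never farrowed, while the old sows had borne litters for years and were culled for low production. Age and reproductive history therefore cannot be told apart in these groups. Every sow was fasted overnight before slaughter, according to the study's methods. Each library is a separate animal, and with 2 animals in a group the spread within an age is known only roughly.

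In the cytosol, AHR is held by a chaperone complex with HSP90. After binding a ligand such as a dioxin, a polycyclic aromatic hydrocarbon or a tryptophan metabolite, it enters the nucleus, pairs with ARNT and drives transcription of a set of genes known as the AHR battery. CYP1A1 and CYP1A2 are the monooxygenases that lead this battery in liver, where CYP1A2 is a constitutive enzyme of hepatocytes and CYP1A1 is the more inducible of the pair. TIPARP and AHRR are induced targets that restrain the receptor, and NQO1 is a quinone reductase that answers both to AHR and to the stress factor NRF2.

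The library totals implied by the values lay between 61539352 and 91846048 reads, of which between 22482241 and 37555696 fell on mRNAs. Hepatocyte markers were present in all 4 livers. Of the 10 listed, 9 had an identifier and none was at 0, and their summed level was 49566 and 56070 CPM in the young sows and 34602 and 40662 CPM in the old sows, a ratio of the means of 1.40. The libraries of the old sows stood apart in other ways. The summed level of 12 interferon-stimulated genes was 49.1 and 63.5 CPM in the young sows and 44.7 CPM in old replicate 2, but 1839 CPM in old replicate 1. For 10 immediate early genes the summed level was 19.1 and 15.5 CPM in young livers, against 112 CPM (old replicate 1) and 344 CPM (old replicate 2). The part of these differences in the values below was not tested.

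AHR was at 4.01 and 2.82 CPM in the young sows (368 and 244 reads) and at 4.70 and 3.69 CPM in the old sows (289 and 265 reads). The age groups overlapped, as old replicate 2 lay between the young sows. On log2(CPM + 1), limma put the log2 fold change of old over young at 0.24 (standard error 0.22), and at values between 0.05 and 0.44 when any single library was dropped. When the libraries were rescaled by TMM or by DESeq2 size factors, both old livers lay above both young livers.

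ARNT, the nuclear partner of AHR and also of the hypoxia factors, was at 6.95 and 9.15 CPM in the young sows (638 and 792 reads) and at 5.23 and 6.52 CPM in the old sows (322 and 468 reads). Both old values were below both young values, but old replicate 2 and young replicate 1 differed only by a factor of 1.07. Its log2 fold change was -0.39 (standard error 0.20), and with either rescaling the groups overlapped.

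CYP1A1 was at 218 CPM in young replicate 1, 415 CPM in young replicate 2, 28.3 CPM in old replicate 1 and 32.2 CPM in old replicate 2. These values rest on 20018, 35946, 1742 and 2316 reads, so counting error was small beside the difference between sows. The lower young liver was 6.76 times the higher old liver. The old livers lay within a factor of 1.14 of each other, whereas the young sows differed by a factor of 1.91. Limma gave CYP1A1 a log2 fold change of -3.27 (standard error 0.38), and it lay between -3.74 and -2.81 whichever library was left out.

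CYP1A2, which metabolizes caffeine and many aromatic amines, was at 339 and 554 CPM in the young sows (31131 and 47943 reads). In the old sows it was at 27.7 CPM in replicate 1 and 112 CPM in replicate 2 (1706 and 8075 reads). All old values were below all young values, but here the old sows differed from each other by a factor of 4.06. Of the 9798 mRNAs with a mean of at least 1 CPM, 2.99% had a gap between the old sows at least as large on log2(CPM + 1), against 75.1% for the gap of CYP1A1. For CYP1A2 the log2 fold change was -2.93 (standard error 0.83), -3.92 without old replicate 2 and -1.94 without old replicate 1. Old replicate 1, the liver with the high interferon-stimulated genes, thus had the lowest CYP1A2, while CYP1A1 was nearly equal in both old livers.

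NQO1 was at 4.69 and 7.51 CPM in the young sows (431 and 650 reads) and at 0.845 and 2.24 CPM in the old sows (52 and 161 reads). The groups did not overlap, and as for CYP1A2 the lowest value was that of old replicate 1. On log2(CPM + 1) the difference was -1.51 (standard error 0.41). It was -1.10 without old replicate 1 and -1.92 without old replicate 2.

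TIPARP, a mono-ADP-ribosyltransferase that modifies AHR and shortens its activity, had the opposite order. It was at 1.02 and 0.127 CPM in the young sows and at 2.10 and 1.36 CPM in the old sows. Both old livers were above both young livers, and the low value of young replicate 2 rests on 11 reads against 94, 129 and 98 in the other libraries. Its log2 fold change was 0.84 (standard error 0.38), and 0.42 without young replicate 2. At this low level it depends on the pseudocount, and with 0.1 in place of 1 it was 1.83.

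**Figure D1:**
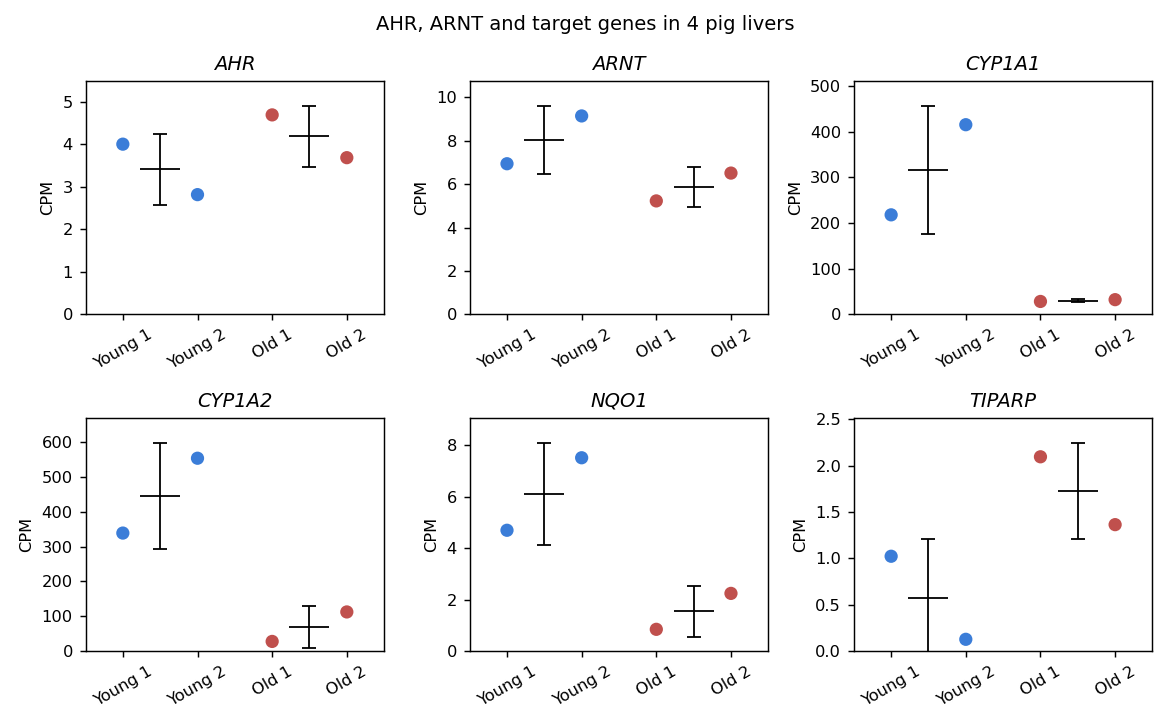
Level in CPM (vertical axes, from 0) of the 6 genes in each of the 4 libraries; blue points are young and red points old livers, and black marks are group means with SD (n = 2), cut at 0. CYP1A1, CYP1A2 and NQO1 were lower in both old livers than in both young livers, TIPARP was higher, ARNT was lower by a narrow margin and AHR overlapped.

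Of the 6 genes, 4 had both old libraries below both young libraries (CYP1A1, CYP1A2, ARNT and NQO1), where 25% of the 16898 mRNAs tested had this order. TIPARP had the reverse order, which 24.4% of the mRNAs had. A call required an absolute log2 fold change above 1 and an adjusted p-value (Benjamini-Hochberg) under 0.05, and limma made it for none of the 6 genes and 0% of all mRNAs. At the 0.05 level without adjustment, limma counted 3 genes as lower (CYP1A1, CYP1A2 and NQO1) beside 8.93% of all mRNAs, and 0 as higher beside 6.78%. The exact test of edgeR on whole reads called CYP1A1 among the lower mRNAs, 0.32% of all, and no member among the higher mRNAs, 2.04% of all. The quasi-likelihood test of edgeR called none of the 6 genes and 0% of all. DESeq2 called CYP1A1 and CYP1A2 among the lower mRNAs, 1.17% of all, and again no member among the higher ones, 4.04%. Since the genes were chosen with this contrast known, nothing is read from these counts.

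The size of the CYP1A differences lay far out in the distribution over all mRNAs, whose log2 fold changes ran from -0.96 at the 5th to 0.99 at the 95th percentile. A log2 fold change as low as that of CYP1A1 was found for 8 of the 16898 mRNAs (0.0473%), itself included, and one as low as that of CYP1A2 for 15 (0.0888%). NQO1 was outside the same percentiles, and AHR, ARNT and TIPARP were inside them. As the genes were chosen with this contrast known, their places in the distribution are a description and no test.

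**Figure D2:**
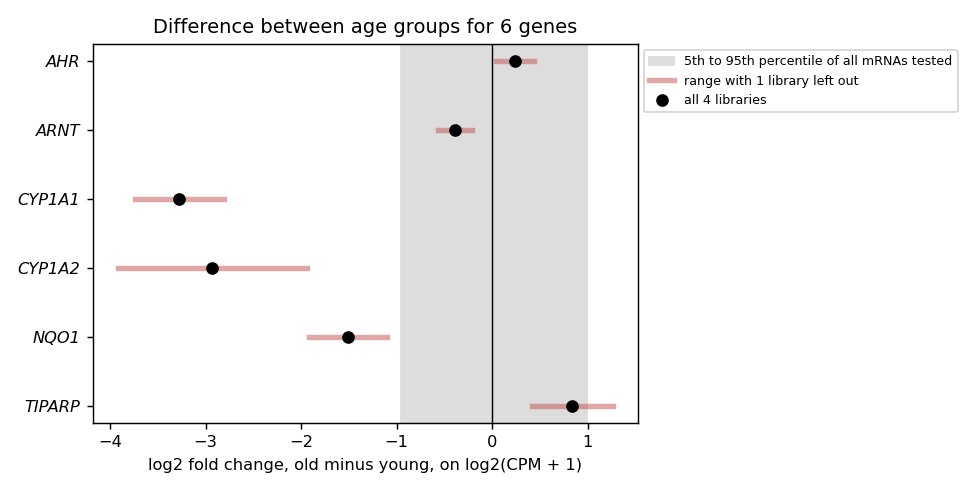
Log2 fold change of old over young on log2(CPM + 1) (horizontal axis) for the 6 genes; points use all 4 libraries, red bars span the values with 1 library left out, and the grey band runs from the 5th to the 95th percentile of 16898 mRNAs (-0.96 to 0.99). CYP1A1, CYP1A2 and NQO1 lie to the left of the band under every choice of libraries.

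In bulk liver, fewer cells of a type and less RNA per cell cannot be told apart. The values were therefore also set against the summed hepatocyte markers of the same library. Per 10000 CPM of these markers, CYP1A1 was at 44.0 and 74.1 in the young sows and at 8.18 and 7.93 in the old sows, a ratio of the means of 7.33. CYP1A2 was at 68.4 and 98.8 against 8.01 and 27.6, a ratio of 4.69, and NQO1 at 0.947 and 1.34 against 0.244 and 0.551, a ratio of 2.87. On this scale the age groups of ARNT overlapped, and AHR and TIPARP were above both young livers in both old livers. The summed hepatocyte markers were thus lower in the old sows by less than CYP1A1, CYP1A2 and NQO1 were. ALB was the largest part of this sum, with 29468 and 35205 CPM in the young sows and 16534 and 23978 CPM in the old sows. Of the 9 markers, 2 were lower in both old livers, beside 25% of all mRNAs, and 7 overlapped, so the scale mostly follows ALB.

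The zones of the liver lobule were compared in the same way, since CYP1A2 is known as an enzyme of the hepatocytes around the central vein. Of 8 pericentral genes with an identifier, 1 was lower in both old livers and 1 was higher, beside 25% and 24.4% of all mRNAs. The higher one was LGR5, at 0 in both young sows and at 0.032 and 0.167 CPM in the old sows. The median log2 fold change of the 8 was -0.05. It says little about the zone, since SLC1A2, LGR5, AXIN2, TBX3 and CYP27A1 had low levels, where the pseudocount of 1 draws fold changes towards 0. OAT (-0.63) and RGN (-0.06) overlapped between the ages. CYP2E1, the best-known pericentral P450, was at 1503 and 2028 CPM in the young sows and at 850.4 and 1365 CPM in the old sows. Of 8 periportal genes, 3 were lower in both old livers and none higher, beside the same shares of all mRNAs, with a median of -0.59. None of the 16 genes of both zones passed the call of limma. No mRNA did (smallest adjusted p = 0.213 over 16898 mRNAs, limma), so this says nothing about the zones. Without adjustment, 0 in either zone reached the 0.05 level, beside 8.93% of all mRNAs as lower and 6.78% as higher. The exact test of edgeR also called 0 of the 16, beside 0.32% of all mRNAs as lower and 2.04% as higher.

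CYP1A1 and CYP1A2 are close relatives, and how the authors' counting divided reads that could come from either is not given in the sources used here. Their summed level, which such a division leaves as it is, was 557 and 969 CPM in the young sows and 56.0 and 145 CPM in the old sows. Of the reads of the pair, CYP1A1 held 39.1% in young replicate 1 (95% Wilson interval 38.7 to 39.6), 42.8% in young replicate 2 (42.5 to 43.2), 50.5% in old replicate 1 (48.9 to 52.2) and 22.3% in old replicate 2 (21.5 to 23.1). The intervals cover counting error only. The old livers thus lay on opposite sides of both young livers in the balance of the pair. This share does not depend on how a library is scaled.

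In the RefSeq gene table of Sscrofa11.1, a later assembly than that of the deposited values and used here for the order of genes only, the CYP1A genes are direct neighbours with 0 protein-coding genes between them. Of the 10 nearest protein-coding genes, 5 on each side, 9 had a value. Their log2 fold changes lay between -0.32 (EDC3) and 0.64 (UBL7), with a median of 0.04. EDC3, a decapping factor and the gene next to CYP1A1, was at 1.66 and 2.44 CPM in the young sows and at 1.40 and 1.43 CPM in the old sows. CSK, a kinase gene next to CYP1A2, was at 1.18 and 1.20 CPM against 1.25 and 2.26 CPM. Both old livers were lower for 2 of the 9 genes and higher for 3, beside 25% and 24.4% of all mRNAs. The smallest adjusted p-value among the 9 was 0.258 (limma), so none passed the call, which no mRNA passed. These neighbours were looked up after the values of the CYP1A genes were known.

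**Figure D3:**
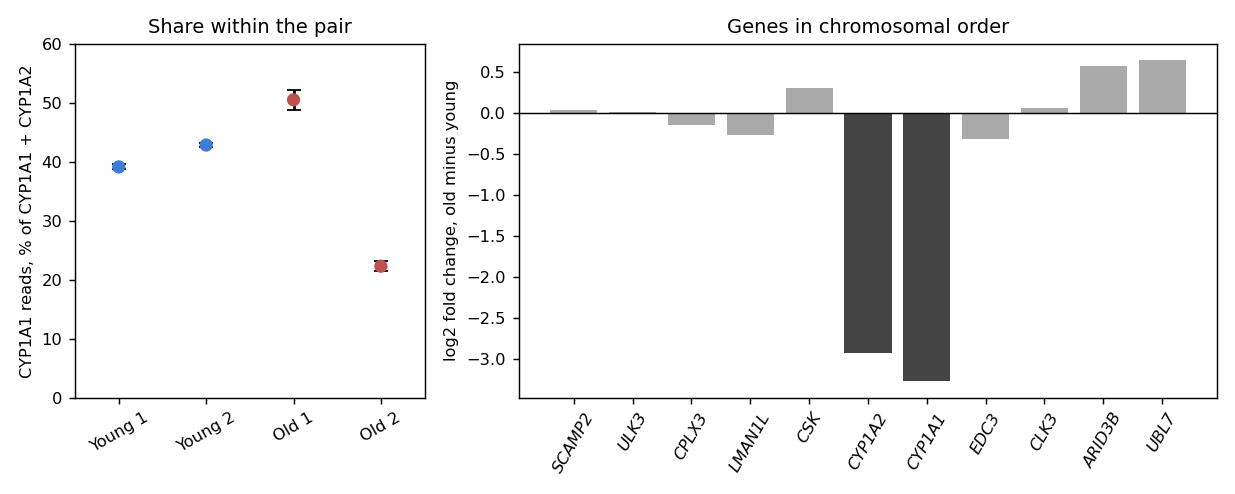
Left, CYP1A1 reads as percent of the reads of CYP1A1 and CYP1A2 together in each library, with 95% Wilson intervals; right, log2 fold change of old over young on log2(CPM + 1) for CYP1A2, CYP1A1 (dark bars) and 9 neighbouring genes (grey bars) in their order along the chromosome. The share ran from 22.3% in old replicate 2 to 50.5% in old replicate 1, and the neighbours lay between -0.32 and 0.64 while the CYP1A genes lay at -2.93 and -3.27.

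Among P450 genes with a symbol and a mean of at least 1 CPM, 14 in all, CYP1A1 and CYP1A2 had the lowest log2 fold changes. The 12 others lay between -1.52 (CYP39A1, an oxysterol hydroxylase) and 0.70 (CYP26A1, a retinoic acid hydroxylase), with a median of -0.14. Of these 12, both old livers were lower for 4 and higher for 2, beside 25% and 24.4% of all mRNAs. CYP2A19, like CYP1A2, was lowest in old replicate 1 (48.6 CPM), but it was highest in old replicate 2 (1333 CPM), with 176 and 417 CPM in the young sows.

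Profiles like those of the CYP1A genes were searched among 9797 other mRNAs with a mean of at least 1 CPM, by the Euclidean distance between log2(CPM + 1) values centred on each gene's mean over the 4 libraries. The 5 mRNAs nearest to CYP1A1 had no symbol in the gene table and distances of 0.52 to 0.77. ENSSSCG00000028817 was the nearest, with 5.86 and 19.4 CPM in the young sows and 0.390 and 0.251 CPM in the old sows. ENSSSCG00000004194 followed with 8.95 and 31.4 against 1.20 and 1.10 CPM. The study names ENSSSCG00000004194 as ENPP3 and lists it, like CYP1A1, as a down-regulated predicted target of the same lncRNA. The nearest to CYP1A2, at 0.15, was SLC51B, a subunit of the basolateral bile acid exporter, with 22.7 and 34.1 CPM in the young sows and 0.991 and 7.25 CPM in the old sows. It was followed by MAGED1 (0.66), the liver glycogen synthase gene GYS2 (0.67), 1 mRNA without a symbol (0.69) and the alcohol dehydrogenase gene ADH4 (0.74). GYS2 was at 47.3 and 56.3 CPM in the young sows and at 3.98 and 20.4 CPM in the old sows, with old replicate 1 again the lowest. CYP1A1 and CYP1A2 were less like each other, at a distance of 1.33, which made CYP1A2 the 26th nearest to CYP1A1. With 4 libraries many genes share a profile, and nothing follows from the likeness.

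The other genes of the pathway were taken from 6 lists of 90 genes without the members, of which 66 had an identifier and 65 were tested with limma. None of the 65 passed the call, which none of the 16898 mRNAs passed, so nothing about the pathway follows from this. Without adjustment, 5 were higher and 7 lower in old livers at the 0.05 level, beside 6.78% and 8.93% of all mRNAs. The exact test of edgeR called 0 as well. So did its quasi-likelihood test, which called 0% of all mRNAs. DESeq2 called 2, of which KMO is described with the tryptophan enzymes. Both old livers were lower for 16 of the 65 genes (24.6%) and higher for 10 (15.4%), beside 25% and 24.4% of all mRNAs. The median log2 fold change was -0.07, and that of all mRNAs -0.02.

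The chaperones of the receptor showed no common direction. HSP90AA1, which encodes the inducible cytosolic HSP90, was at 62.6 and 61.9 CPM in the young sows and at 82.9 and 42.1 CPM in the old sows, so the old values lay on both sides of the young ones. HSP90AB1, its constitutive relative, was at 23.4 and 20.6 against 20.5 and 27.0 CPM. PTGES3, the p23 co-chaperone, was at 9.60 and 6.92 against 9.41 and 5.76 CPM. Of the 4 genes of the complex with a value, only SRC had groups that did not overlap. SRC, a tyrosine kinase released from the complex, was higher in the old sows, an order that 24.4% of all mRNAs had.

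Among 12 relatives of ARNT and coregulators, 3 were higher and 1 was lower in both old livers, beside 24.4% and 25% of all mRNAs. Their median log2 fold change was 0.15. ESR1, the estrogen receptor with which AHR is known to interact, was at 2.05 and 5.50 CPM in the young sows and at 10.97 and 6.15 CPM in the old sows. SP1 was at 8.20 and 3.32 against 11.9 and 7.02 CPM, and RELA, a subunit of NF-kB, at 12.7 and 9.12 against 10.01 and 10.204 CPM. The groups of SP1 and RELA overlapped.

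Of 14 other reported targets of AHR with a value, 13 were tested. Both old livers were lower for 3 of them and higher for 1, beside 25% and 24.4% of all mRNAs, and the median log2 fold change was 0.01. The 3 were SELENBP1, XDH and NFE2L2. SELENBP1, a selenium-binding methanethiol oxidase, was at 94.3 and 156 CPM in the young sows and at 18.3 and 76.1 CPM in the old sows, again lowest in old replicate 1. XDH, the xanthine oxidoreductase of purine breakdown, was at 39.3 and 35.3 against 21.5 and 24.0 CPM (log2 fold change -0.69, standard error 0.14, adjusted p = 0.230, limma). PCK1 overlapped, with 83.9 and 246 CPM in the young sows and 34.6 and 209.5 CPM in the old sows. ALDH3A1, a target induced in many tissues with CYP1A1, was listed at 0 in 3 libraries and at 0.016 CPM in old replicate 1, and was not tested.

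NFE2L2 encodes NRF2, through which NQO1 is also induced. It was at 21.003 and 46.5 CPM in the young sows and at 13.3 and 12.3 CPM in the old sows, and KEAP1, its inhibitor, at 2.56 and 2.46 against 1.84 and 1.07 CPM. Of the 15 genes of the NRF2 list, 6 were lower and 3 higher in both old livers, beside 25% and 24.4% of all mRNAs. Their median log2 fold change was -0.16. GCLC, the catalytic subunit of glutathione synthesis, was at 17.3 and 37.2 against 7.69 and 16.2 CPM. EPHX1, the microsomal epoxide hydrolase that acts on products of CYP1A1, was at 170.3 and 292 CPM in the young sows and at 32.4 and 179 CPM in the old sows. NQO2, the closest relative of NQO1, did not share its pattern, with 38.7 and 67.9 against 45.8 and 90.2 CPM. The bilirubin glucuronide exporter ABCC2 was at 32.1 and 28.9 against 15.6 and 20.2 CPM, so both old values were below both young values. KEAP1, GCLC, NFE2L2 and SRC are named here after their values were seen.

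P450 enzymes need heme and electrons. Of 11 genes of this supply, 3 were lower and 2 higher in both old livers, beside 25% and 24.4% of all mRNAs. The median log2 fold change was -0.31. CYB5A, the cytochrome b5 that passes electrons to P450 enzymes, was at 289 and 303 CPM in the young sows and at 160.0 and 159 CPM in the old sows (log2 fold change -0.89, standard error 0.11, adjusted p = 0.213, limma). The old values were nearly equal, and both were below both young values. PGRMC1, a heme-binding partner of P450 enzymes, overlapped with 339 and 421 against 276 and 375 CPM. HMOX2, the constitutive heme oxygenase, was at 61.3 and 59.8 against 87.0 and 65.4 CPM. ALAS1, the first enzyme of heme synthesis, was at 42.5 CPM in young replicate 1 but at 1.05 CPM in young replicate 2, and at 33.8 and 14.7 CPM in the old sows, and it too is named after its values were seen.

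Kynurenines and other products of tryptophan are natural ligands of AHR, and the liver starts their synthesis with TDO2. This gene was at 284 and 269 CPM in the young sows and at 154 and 98.4 CPM in the old sows (log2 fold change -1.16, standard error 0.27, adjusted p = 0.254, limma). KMO, which hydroxylates kynurenine, was at 37.4 and 34.0 against 11.1 and 15.02 CPM (-1.39, standard error 0.20, adjusted p = 0.213, limma). KYNU, the kynureninase, was at 6.09 and 5.93 against 2.15 and 2.41 CPM, and is named after its values were seen. IDO2, a relative of the interferon-induced IDO1, was at 67.9 and 46.5 against 135 and 58.8 CPM, with the high value in old replicate 1. Of the 11 genes of this list, 4 were lower and none higher in both old livers, beside 25% and 24.4% of all mRNAs. Their median log2 fold change was -0.12.

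**Figure D4:**
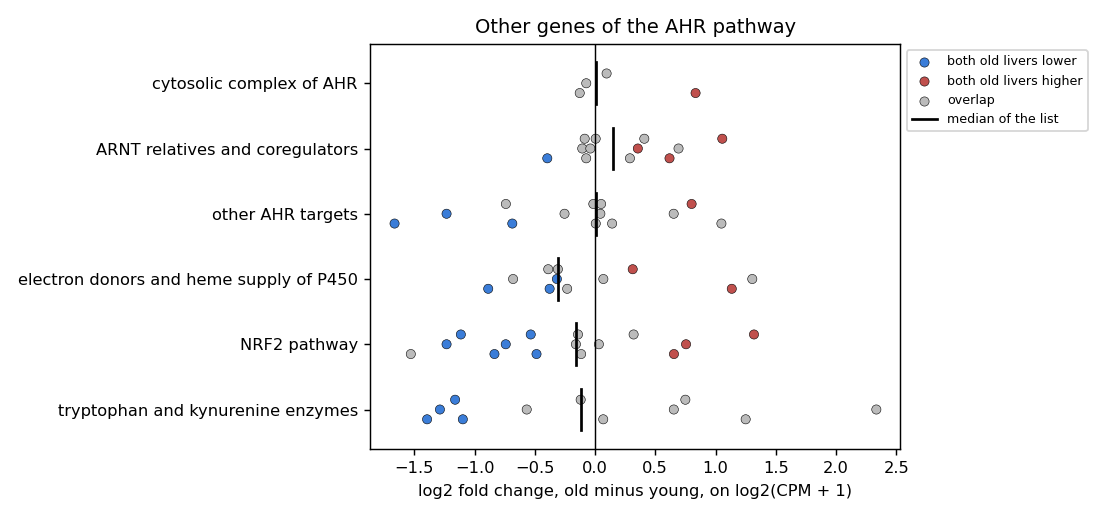
Log2 fold change of old over young on log2(CPM + 1) (horizontal axis) for each tested gene of the 6 pathway lists; colours tell whether both old livers lay below or above both young livers or overlapped, and black bars are list medians. Medians lay between -0.31 and 0.15, and each list holds genes on both sides of 0.

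The small RNA libraries give a readout of the same livers that had no part in choosing the genes. Their values are a normalised signal of unstated total, and of 867 miRNAs tested with limma none passed the call (0%). Without adjustment, 72 (8.3%) were higher and 31 (3.58%) were lower in old sows at the 0.05 level. miR-132 and miR-212 come from 1 cluster that ligands of AHR are known to induce in T cells. The signal of miR-212-3p was 45.4 and 40.4 in young sows, against 232 (old replicate 1) and 34.5 (old replicate 2). That of miR-132-5p was 61.4 and 44.3 in young sows, against 176 (old replicate 1) and 63.0 (old replicate 2). ssc-miR-132 was at 33.4 and 34.6 against 100.1 and 29.7, and miR-212-5p at 22.7 and 18.3 against 37.5 and 13.1. Both old livers were above both young livers for 1 of the 4 names, miR-132-5p, an order that 28.3% of the miRNAs tested had. All 4 names of the cluster were highest in old replicate 1, the liver with high interferon-stimulated genes and the lowest CYP1A2, and the part of that liver's state in them was not tested. On log2(signal + 1), the log2 fold changes were 1.05 (standard error 0.90, adjusted p = 0.696, limma) for miR-212-3p and 1.004 (standard error 0.70, adjusted p = 0.603, limma) for miR-132-5p. Without old replicate 1 they were -0.30 and 0.27.

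miR-27b is known to repress CYP1B1. The signal of miR-27b-3p was 34512 and 21583 in the young sows and 29786 and 26517 in the old sows, so the old values lay between the young ones (log2 fold change 0.04, standard error 0.60, adjusted p = 0.988, limma). Its other arm, ssc-miR-27b-5p, was at 82.7 and 61.6 against 46.6 and 57.1, lower in both old livers like 16.1% of the miRNAs tested (-0.46, standard error 0.59, adjusted p = 0.818, limma). ssc-miR-27a and miR-27a-5p overlapped between the ages, with log2 fold changes of 0.16 and 0.19.

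**Figure D5:**
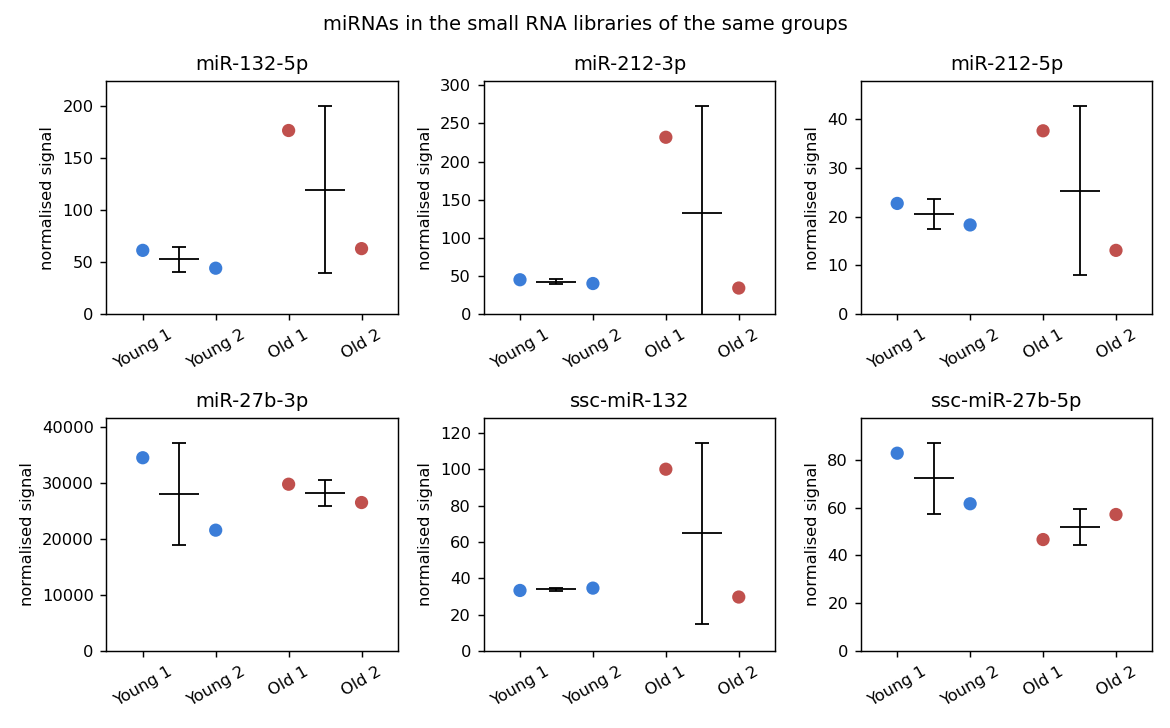
Normalised signal (vertical axes, from 0) of 6 miRNA names in the 4 small RNA libraries; blue points are young and red points old livers, and black marks are group means with SD (n = 2), cut at 0. The names of miR-132 and miR-212 were highest in old replicate 1, at 2.87 and 5.11 times the higher young liver for miR-132-5p and miR-212-3p.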

How the data were processed

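For the mRNA values, the authors mapped RNA-seq reads to Sscrofa10.2 with TopHat2 2.0.14, built transcripts with StringTie and quantified with Salmon 0.6.0, calling the result TPM. As deposited, the values are CPM: with 1 library total per library, 100% of the values above 0 came out as whole reads (within 0.1 read), so no gene length enters. The small RNA values, a normalised signal from mirdeep2 and miRBase, were deposited with an unstated total. Replicates were not pooled.

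Symbols were joined for 11654 of the 21607 identifiers. Old and young livers were compared with limma 3.58.1 (R 4.3.3) on log2(value + 1), over features detected in 2 or more libraries, and p-values were adjusted over all of them after Benjamini-Hochberg. edgeR 4.0.16 and DESeq2 1.42.0 were run on recovered reads as alternatives, beside another pseudocount, other filters and scalings, a replicate block and leaving out each library. The fits were also run on simulated counts, and the outcome is not reported here. Values differed between the livers of a group by far more than sampling noise (chi-square per degree of freedom 157 and 449 across genes).

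The members and lists were chosen with earlier results of these data known. The lists were those of the pathway described with the results, lobule zones, interferon-stimulated and immediate early genes, and markers of hepatocytes, stellate cells, endothelial cells, macrophages, cholangiocytes, B and plasma cells, T and NK cells, erythroid cells and skeletal muscle. Named genes were all members, the 3 of each pathway list with the largest mean CPM, every one past a call, and the 5 nearest profiles to each CYP1A gene; some list genes are not reported here. Neighbouring genes and ratios to hepatocyte markers were added after values were seen. lncRNAs, circRNAs and the sequences of promoters, proteins and miRNAs were not used here.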

Additional observations from a re-analysis of the deposited data

How the results depend on the processing

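Limma called 0 of 16898 mRNAs, and it called 2 when only mRNAs with a mean of at least 1 CPM were tested, where fewer genes are adjusted for. On recovered reads the exact test of edgeR called 399 and DESeq2 880, the quasi-likelihood test of edgeR 0. For the pathway lists, DESeq2 called 2 genes and every other setting 0. The cause was not tested. miRNA calls were 0 under each setting run, and leaving out any library gave 0 mRNA, list and miRNA calls. No member reversed its direction under any setting run. The log2 fold change of AHR was 0.50 in both edgeR tests, that of TIPARP 1.83 with a pseudocount of 0.1, 1.81 in both edgeR tests and 1.80 in DESeq2, and that of NQO1 -2.02 with a pseudocount of 0.1 (the other 71 alternative values of members moved by less than 1 SD between replicates). The median over all mRNAs lay 0.14 higher in both edgeR tests and 0.12 higher in DESeq2 than in limma. With TMM scaling or DESeq2 size factors, 2 members (AHR and TIPARP) had both old libraries above both young ones instead of 1. With 1 library left out this count ran from 1 to 2, being 2 without young replicate 1 or old replicate 2, and the count of members below was 4 throughout. The replicate numbers of the labels do not tie sows together (correlation of same-numbered deviations 0.10 across mRNAs and -0.01 across miRNAs); with them as a replicate block the calls were 0 and the log2 fold change of CYP1A1 was -3.27. Depth limits TIPARP most among the members, since its value in young replicate 2 rests on 11 reads.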

Other observations

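The old livers also differed from the young ones outside the AHR pathway, and the values are given without explanation. Of 10 immediate early genes, 7 were higher in both old livers and none was lower, beside 24.4% and 25% of all mRNAs. FOS was at 1.17 and 1.49 CPM in the young sows and at 9.95 and 206 CPM in the old sows, DUSP1 at 10.245 and 6.37 against 65.2 and 56.6 CPM, and IER2 at 3.52 and 2.69 against 18.2 and 28.8 CPM. The exact test of edgeR called 5 of the 10 as higher, beside 2.04% of all mRNAs. Limma called none of the 10 and no other mRNA. By limma, 4 were higher at an unadjusted p-value under 0.05, beside 6.78% of all mRNAs. Of 12 interferon-stimulated genes, old replicate 1 exceeded both young sows for all 12, whereas old replicate 2 exceeded them for 4 and lay below them for 5. RSAD2 was at 0.664 and 1.54 CPM in the young sows, 618 CPM in old replicate 1 and 2.28 CPM in old replicate 2.

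The markers of other liver cells were summed per library. Macrophage markers (6 of 10 with an identifier) gave 245 and 277 CPM in the young sows and 392 and 386 CPM in the old sows, and T and NK cell markers (5 of 8) gave 6.01 and 7.91 against 17.9 and 10.233 CPM. Endothelial markers (5 of 10) gave 40.7 and 37.3 against 68.1 and 46.1 CPM. The sums of stellate cell and fibroblast markers (8 of 10; 21.8 and 40.6 against 15.8 and 53.5 CPM), cholangiocyte markers (5 of 8; 9.57 and 11.8 against 7.70 and 19.4 CPM), B and plasma cell markers (4 of 6; 2.56 and 4.51 against 12.4 and 2.42 CPM) and skeletal muscle markers (2 of 10; 0.904 and 0.242 against 0.081 and 2.16 CPM) overlapped. Erythroid markers (4 of 7) gave 622 and 429 against 308 and 407 CPM. No marker with an identifier was at 0 in all 4 libraries. Limma called none of these genes, as it called 0 of all mRNAs.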
